A study of Mus musculus with 18 samples.

Results

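Of the 18 libraries of the study, the 6 taken at 8 h were compared here, 3 of immortalized murine brown preadipocytes given FGF6 at 200 ng/ml and 3 given vehicle. All genes with enough counts for a test were described, which left 15071 of the 48023 genes in the deposited table. The cells are precursors of brown fat that had not been put through adipogenic differentiation, immortalized with a viral T antigen and kept in medium with serum, and both groups shared these features. The labels give FGF6 or vehicle as the sole difference between the groups, and the composition of the vehicle was not given in the sources used here. The 8 h point lies between harvests at 4 h and 24 h, each with its own vehicle libraries. The labels do not say whether the 3 libraries of a group came from separate cultures, so the p-values measure only the spread between these samples, which may be technical.

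FGF6 is a paracrine fibroblast growth factor. Ligands of this kind bind FGF receptors together with heparan sulfate proteoglycans at the cell surface, and the receptors signal mainly through the RAS-ERK pathway and through PI3K and AKT. ERK activity is known to switch on immediate early transcription factors and a set of feedback inhibitors, the Sprouty proteins and dual specificity phosphatases among them, whereas AKT keeps FoxO transcription factors out of the nucleus. In preadipocytes, FGF signals are known to act on growth and on the readiness to become adipocytes.

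Total counts were between 24327816 and 30903113 in the FGF6 libraries and between 27935230 and 30282133 in the vehicle libraries, and all 18 libraries lay nearest to the mean of their own group. Levels are given as counts per 1000000 (CPM) over the TMM-scaled library total, and a floor of 3 counts corresponded to 0.0947 to 0.123 CPM, for counting error only. All 9 preadipocyte and fibroblast markers examined were detected, with a summed level of 8850 to 9300.0 CPM in vehicle and 4390 to 4670 CPM in FGF6 libraries. This sum follows mainly the collagens Col1a1 (37047 to 114614 counts) and Col1a2 (35820 to 112029 counts). The summed level of a wider preadipocyte and stromal list, given below, overlapped between the groups. The macrophage genes Ptprc, Adgre1, and Itgam, the endothelial gene Emcn, the myoblast gene Myf5, the adipocyte gene Lep, and Ucp1, the uncoupling protein of brown fat, had no count in any of the 6 libraries, which allows a level of up to the floor of 3 counts. The summed levels of the other marker lists were 16.0 to 19.3 CPM in vehicle against 22.0 to 23.6 CPM in FGF6 libraries for macrophages, 0.377 to 0.947 against 2.28 to 3.57 CPM for endothelial cells, 6.22 to 8.65 against 3.76 to 4.68 CPM for myoblasts, 0.126 to 0.240 against 0.814 to 1.75 CPM for epithelial cells, and 3.05 to 4.77 against 2.44 to 3.13 CPM for neural cells. Those of mature adipocytes were 96.5 to 99.7 against 68.5 to 72.6 CPM, and those of brown adipocytes 0.0636 to 0.205 against 0.423 to 0.773 CPM. The part of these marker levels in the results was not tested.

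The response at 8 h was broad. At an adjusted p under 0.05 in edgeR's quasi-likelihood test, 4881 genes rose (32.4% of those tested) and 5783 fell (38.4%), and the median log2 fold change of all genes was -0.05. A change of at least 2-fold was found for 1114 genes that rose (7.39%) and 1645 that fell (10.9%). Many of the changes were small, since 20.9% of the called genes differed by less than 1.2-fold and the median size among called genes was 0.54 on the log2 scale. In bulk RNA, fewer cells of a type and less RNA per cell cannot be told apart. The shares of 32.4% and 38.4% are the background against which the counts of the gene families below are read.

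Among called genes with a mean of at least 1 CPM over the 6 libraries, the steepest increase was that of Areg, which encodes the EGF receptor ligand amphiregulin. Its levels were 0.126, 0.0636, and 0.171 CPM in the vehicle libraries and 37.3, 37.9, and 37.0 CPM in the FGF6 libraries (log2 fold change 8.24, standard error 0.14, adjusted p = 8.53e-25). The vehicle values lay near the floor of 3 counts while the FGF6 values were within 1 CPM of one another. The standard errors printed here and below were derived from the test statistic. They are too small for a gene with so few counts in 1 group. Slc14a1, a urea transporter, measured 1.07, 0.954, and 0.753 CPM in vehicle and 115, 128, and 131 CPM in FGF6 libraries (log2 fold change 7.06, standard error 0.10, adjusted p = 2.57e-26). Sema7a, a membrane-anchored semaphorin, had 11, 9.79, and 8.35 CPM against 634, 646, and 631 CPM (log2 fold change 6.03, standard error 0.07, adjusted p = 3.78e-28). The groups were far apart for each of these genes. The other genes among the 10 largest increases were Tmem200a (6.21), the plasminogen activator inhibitor Serpinb2 (6.19), the adenylyl cyclase Adcy8 (5.69), Pbp2 (5.57), the alarmin cytokine Il33 (5.45), the growth factor Fgf2 (4.99), and Havcr2, an immune checkpoint receptor gene that was at the floor in vehicle and at least 25.4-fold higher with FGF6 (log2 fold changes in parentheses).

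Among the decreases, Bmf, a BH3-only member of the BCL2 family that promotes cell death, went from 9.94, 11.5, and 10.6 CPM in vehicle to 0.0651, 0.0672, and 0.288 CPM in FGF6 libraries (log2 fold change -6.31, standard error 0.27, adjusted p = 9.65e-17). In 2 of the FGF6 libraries it was under the floor of 3 counts. Scara5, a ferritin receptor expressed by stromal progenitors, measured 7.17, 8.74, and 8.39 CPM against 0.0651, 0.202, and 0.246 CPM (log2 fold change -5.58, standard error 0.22, adjusted p = 1.4e-17). Rasl11a, a small GTPase of the RAS family, had 125, 124, and 126 CPM against 4.30, 4.44, and 3.99 CPM (log2 fold change -4.87, standard error 0.07, adjusted p = 3.46e-26). The remaining genes of the 10 largest decreases were the secreted protease Adamts15 (-5.26), the actin-binding adaptor Sorbs2 (-5.18), the lipid droplet protein Cidec (-4.94), the ligands Wnt16 (-4.65) and Bmp4 (-4.62), the transcription factor Maf (-4.62), and the neuronal calcium sensor Vsnl1 (-4.49). The plot of 20 genes by library shows these levels beside those of genes described below.

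**Figure D1:**
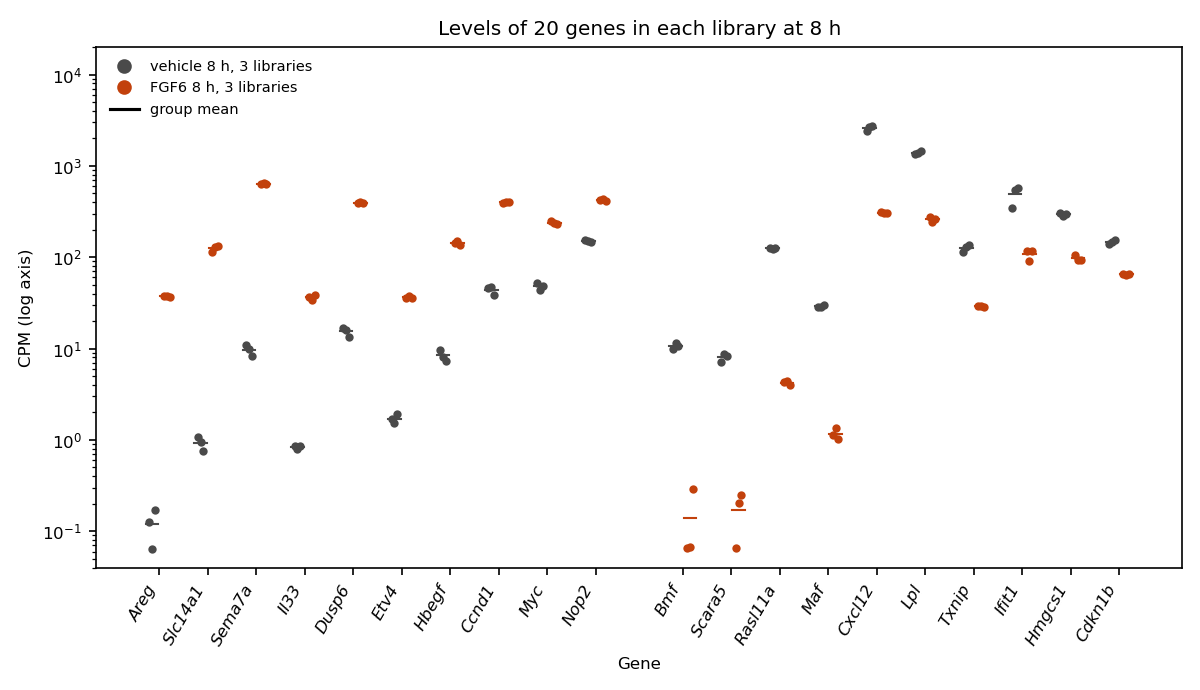
CPM on a log axis of 20 genes in the 3 vehicle (grey) and 3 FGF6 (orange) libraries at 8 h, with a horizontal line at each group mean. The 10 genes on the left were higher and the 10 on the right lower with FGF6, without overlap between the groups, from Areg (0.12 to 37.4 CPM on average) to Cdkn1b (147 to 64.8 CPM). Of all genes tested, 73.8% had no such overlap.

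For the promoters behind some of these families, RefSeq sequences from 250 bases before to 50 bases after the transcription start were searched for binding motifs on both strands, in the 8520 tested genes with exactly 1 annotated start in the table used. The following are promoters of genes that the results turn on, each with a match in capitals, in GRCm38.p6. They were picked among genes whose promoter holds the motif, so a match in each was fixed in advance. Areg (chr5:91139349-91139648, plus strand) holds the cyclic AMP response element TGACGTCA. Dusp5 (chr19:53528895-53529194, plus strand) holds adjoining CArG boxes, the element that serum response factor binds. Nop2 (chr6:125131633-125131932, plus strand) holds the E-box CACGTG, the core element of the MYC-MAX dimer. Ifit1 (chr19:34640639-34640938, plus strand) holds 2 interferon-stimulated response elements (ISRE, searched as GAAA, any 2 bases, and GAAA). Hmgcs1 (chr13:119690101-119690400, plus strand) holds the sterol element TCACNCCAC (SRE-1), and Slc7a11 (chr3:50443564-50443863, minus strand) holds 2 matches to the ATF4 element TGATGNAA.
Areg: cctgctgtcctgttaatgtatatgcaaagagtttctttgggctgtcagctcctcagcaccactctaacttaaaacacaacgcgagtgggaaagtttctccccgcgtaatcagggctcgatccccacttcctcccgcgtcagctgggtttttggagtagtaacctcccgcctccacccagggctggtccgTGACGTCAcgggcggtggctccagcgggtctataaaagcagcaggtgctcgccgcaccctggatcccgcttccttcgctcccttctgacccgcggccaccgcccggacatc
Dusp5: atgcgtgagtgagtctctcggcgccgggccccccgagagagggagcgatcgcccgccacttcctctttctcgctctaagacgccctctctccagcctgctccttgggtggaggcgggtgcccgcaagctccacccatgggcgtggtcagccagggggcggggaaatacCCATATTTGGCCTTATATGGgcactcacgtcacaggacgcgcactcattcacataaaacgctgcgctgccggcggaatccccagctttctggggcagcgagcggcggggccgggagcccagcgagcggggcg
Nop2: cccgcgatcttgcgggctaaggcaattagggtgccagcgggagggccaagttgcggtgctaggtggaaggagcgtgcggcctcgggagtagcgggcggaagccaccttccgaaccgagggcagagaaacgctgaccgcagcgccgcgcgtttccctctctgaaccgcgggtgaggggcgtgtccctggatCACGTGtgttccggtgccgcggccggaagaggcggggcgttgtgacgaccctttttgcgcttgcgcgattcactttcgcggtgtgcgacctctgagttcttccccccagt
Ifit1: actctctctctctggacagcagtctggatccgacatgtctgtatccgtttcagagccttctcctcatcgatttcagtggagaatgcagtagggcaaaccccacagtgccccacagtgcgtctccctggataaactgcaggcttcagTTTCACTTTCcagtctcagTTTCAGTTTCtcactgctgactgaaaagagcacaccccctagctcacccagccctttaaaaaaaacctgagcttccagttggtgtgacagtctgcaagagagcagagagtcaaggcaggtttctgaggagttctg
Hmgcs1: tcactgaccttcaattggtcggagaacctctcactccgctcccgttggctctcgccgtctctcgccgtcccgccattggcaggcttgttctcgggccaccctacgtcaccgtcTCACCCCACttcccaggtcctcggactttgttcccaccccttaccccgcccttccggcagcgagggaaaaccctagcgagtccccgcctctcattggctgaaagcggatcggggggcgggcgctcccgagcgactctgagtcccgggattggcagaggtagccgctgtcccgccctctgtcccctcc
Slc7a11: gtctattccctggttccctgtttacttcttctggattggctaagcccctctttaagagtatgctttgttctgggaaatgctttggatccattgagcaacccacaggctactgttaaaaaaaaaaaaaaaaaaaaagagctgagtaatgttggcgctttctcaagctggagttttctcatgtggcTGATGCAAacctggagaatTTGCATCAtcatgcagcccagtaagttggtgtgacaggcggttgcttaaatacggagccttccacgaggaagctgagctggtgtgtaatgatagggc
The share of promoters with a match is given below beside each family, as a description of these windows. The interferon, ATF4, and NRF2 lists were made of known targets. A high share of the matching motif there follows from that choice, whatever FGF6 does. The ribosome biogenesis and cholesterol lists were chosen by function, so their shares do not depend on FGF6 either.

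The feedback inhibitors of receptor signaling were among the families that rose most. Of the dual specificity phosphatases that remove phosphate from MAP kinases, 7 of 11 genes tested rose and 2 fell, 5 of them at least 2-fold higher, and 1 fell without FGF6 replicate 3. Dusp6, which is selective for ERK, stood at 16.7, 16.0, and 13.5 CPM in vehicle and 397, 402, and 389 CPM in FGF6 libraries (log2 fold change 4.68, standard error 0.07, adjusted p = 4.77e-26). Its level with FGF6 was thus 25.6-fold that of vehicle, with no overlap. Dusp5, the nuclear ERK phosphatase, rose from 20.9 ± 1.52 to 321 ± 10.2 CPM (SD, n = 3, log2 fold change 3.94), Dusp4 from 4.06 ± 0.476 to 83.3 ± 3.33 CPM (4.36), and Dusp9 had a log2 fold change of 3.11. Dusp8, which acts mainly on stress kinases, fell by 1.17 on the log2 scale, and Dusp1, the classical immediate early phosphatase, did not pass the test (-0.25, adjusted p = 0.095). Dusp1 was called lower without vehicle replicate 2 (-0.33), with the replicate number as a block (-0.25), with library sizes alone, with no low-count filter, and in a fit to the 8 h libraries alone. Part of the exons of Dusp5 overlaps a gene on the opposite strand, and the strand setting of the counting was not given in the sources used here.

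Of the Sprouty and Spred proteins and other inhibitors at the receptor, 16 of 21 genes tested rose and 3 fell, with 11 up at least 2-fold and a median log2 fold change of 1.26. Their summed level was 853 to 869 CPM in vehicle and 2579 to 2633 CPM in FGF6 libraries. Spry2 had 11.6, 11.3, and 10.6 CPM in vehicle against 80.7, 82.8, and 79.2 CPM with FGF6 (log2 fold change 2.86, standard error 0.05, adjusted p = 6.01e-24), and Spry4 rose from 6.05 ± 0.42 to 58.5 ± 0.663 CPM (log2 fold change 3.27). Errfi1, which inhibits the EGF receptor, measured 144 and 728 CPM on average (log2 fold change 2.34). The genes that fell were Cish, a suppressor of cytokine signaling (-1.02), Lrig2 (-0.65), and Il17rd, an inhibitor of FGF signaling (-0.50). Spry1 did not pass the test (-0.20). Among the receptors themselves, Fgfr1 rose from 210.0 ± 5.30 to 341 ± 10.8 CPM (0.70) and Fgfr2 fell by 1.95 on the log2 scale, from 39.3 to 10.1 CPM. Fgfr3 had 4.67, 4.00, and 4.69 CPM in vehicle and 3.52, 4.20, and 4.03 CPM in FGF6 libraries, with overlapping groups (adjusted p = 0.252). Over the 15 receptor and heparan sulfate proteoglycan genes tested, 6 rose and 4 fell, with glypican 1 (Gpc1, 0.96) the highest increase of them that passed the test.

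Transcription factors that ERK signaling is known to induce were also largely higher. Of the immediate early factors, 21 of 28 genes tested rose and 5 fell, and the median was 0.93. Without FGF6 replicate 3 the number that fell was 2, and without vehicle replicate 1 it was 3. Fosl1, an AP-1 subunit, measured 62.9, 52.3, and 45.5 CPM in vehicle and 325, 317, and 309.7 CPM in FGF6 libraries (log2 fold change 2.57, standard error 0.08, adjusted p = 3e-19), although 1163 of the 2033 bases of its exons overlap Ccdc85b on the other strand. Egr3 (4.13), Egr2 (3.89), and Egr1 (2.60), zinc finger factors of the early growth response family, also rose. Atf3, a stress-induced factor, fell (-1.42), as did the AP-1 subunit Fosl2 (-0.64), and Srf and Klf4 (both 0.05) did not pass the test. The AP-1 motif TGANTCA was in 5 of the 51 promoters searched among the 100 largest increases (9.80%), against 4.85% of all promoters searched. Among those of the 100 largest decreases it was in 2 of 51 (3.92%), so the shares rest on few promoters. The cyclic AMP element shown for Areg was in 3.92% of the promoters of the 100 largest increases and 3.32% of all promoters, and the CArG box shown for Dusp5 in 1.96% and 1.37%. Among the 100 largest increases these were 2 promoters, of Areg and Has1, and 1 promoter, of Dusp5.

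Of the ETS factors, 9 of 15 genes tested rose and 5 fell. The PEA3 subfamily, which ERK is known to induce, led the list. Etv4 was at 1.70, 1.53, and 1.92 CPM in vehicle and 36.2, 37.7, and 36.2 CPM with FGF6 (log2 fold change 4.42, standard error 0.10, adjusted p = 1.95e-22), Etv5 had 8.65, 6.48, and 5.89 CPM against 41.6, 41.4, and 43.1 CPM (log2 fold change 2.58, standard error 0.08, adjusted p = 2.27e-19), and Etv1 had a log2 fold change of 2.10. The 3 genes showed no overlap between the groups, like 73.8% of all genes tested. Elf1 (-0.55) and Ets2 (-0.27) were lower. The ETS motif CCGGAAGT was in 1.96% of the promoters of the 100 largest increases and 8.52% of all. Myc, which drives biosynthesis and growth, rose from 48.1 ± 4.51 to 238 ± 10.1 CPM (SD, n = 3, log2 fold change 2.31, standard error 0.06, adjusted p = 6.17e-22). In the MYC and MAX network 6 of 11 genes rose and 3 fell. Of the antagonists of MYC, Mxd4 (-2.11), Mxd1 (-1.16), and Mxd3 (-0.70) were lower and Mxi1 (0.26) was higher. Mnt (-0.08) did not pass the test, although it was called lower without vehicle replicate 3 (-0.16). The partner of MYC, Max (0.37), was higher.

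Several secreted ligands rose by large factors. Hbegf, the heparin-binding EGF-like growth factor, had 9.75, 8.07, and 7.39 CPM in vehicle and 144, 150.3, and 135 CPM in FGF6 libraries (log2 fold change 4.09, standard error 0.07, adjusted p = 3.69e-25). With Areg, epiregulin (Ereg, 4.41), and betacellulin (Btc, 2.58), it made up the 4 EGF family genes that rose, out of 11 tested, whereas the receptor Egfr (-0.73), Erbb3 (-1.33), Egf (-0.63), and the neuregulin Nrg1 (-1.61) fell. Erbb2 was at 64.0 and 62.3 CPM and did not pass the test, although it was called lower with library sizes alone (-0.10). Of the cytokine and cytokine receptor genes, 12 of 23 genes tested rose and 10 fell. Il33 measured 0.852, 0.795, and 0.856 CPM in vehicle and 37.0, 34.4, and 38.5 CPM with FGF6 (log2 fold change 5.45, standard error 0.10, adjusted p = 8.71e-24), and its receptor Il1rl1 rose from 719 to 4312 CPM (2.58). Lif (4.09), Tslp (3.67), and Il11 (2.97) were higher, while the receptor chains Il6st (-0.82), Lifr (-1.31), and Il11ra1 (-1.33), through which Lif and Il11 signal, were lower. Fgf2 rose from 1.73 ± 0.337 to 55.6 ± 2.04 CPM (4.99), with exons that in part overlap Nudt6, and of the 7 FGF ligand genes tested 4 rose and 3 fell. Fgf7 (0.17) and Fgf10 (-0.27), ligands made by mesenchymal cells, moved little, from 261 to 294 CPM and from 31.1 to 25.8 CPM.

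Angiogenic and chemotactic genes were mixed. Placental growth factor (Pgf, 2.66) and Vegfa (from 229.7 ± 8.97 to 495 ± 20.8 CPM, log2 fold change 1.11) rose, and Vegfd (-2.31), adrenomedullin (Adm, -2.02), and the angiopoietins Angpt1 (-1.94) and Angpt2 (-1.86) fell. Of the 22 angiogenic genes, 7 were higher and 14 lower. The chemokine Cxcl12, abundant in stromal cells, fell from 2431, 2630, and 2711 CPM in vehicle to 310.1, 308, and 304 CPM (log2 fold change -3.08, standard error 0.06, adjusted p = 6.98e-24), an 8.44-fold difference between groups that each varied little. Ccl2, which attracts monocytes, rose from 906 ± 59.2 to 1595 ± 25.3 CPM (0.82), and of all 19 chemokines 6 rose and 10 fell.

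Genes that cells use to make ribosomes rose nearly as a block. Of the genes for ribosome biogenesis and RNA polymerase I, 100 of 104 genes tested rose and 3 fell (96.2% higher and 2.88% lower, against 32.4% and 38.4% of all genes), 39 of them by at least 2-fold, and the median log2 fold change was 0.89. Their summed level was 9138 to 9368 CPM in vehicle and 17520 to 17710 CPM in FGF6 libraries. Rrp9, a component of the U3 snoRNP that processes ribosomal RNA, had 45.4, 42.8, and 40.6 CPM in vehicle and 138, 129.9, and 149.8 CPM with FGF6 (log2 fold change 1.70, standard error 0.06, adjusted p = 5.9e-19). The rRNA methyltransferase Nop2 had 153, 149, and 146 CPM against 418, 434, and 413 CPM (log2 fold change 1.50, standard error 0.03, adjusted p = 2.42e-22), and Rrs1 had the largest rise of the list (1.76). None of these 3 genes overlapped between the groups, which was so for 73.8% of all genes tested. The genes that fell were Taf1b (-0.38), Znrd1 (-0.33), and Ddx52 (-0.17). The E-box CACGTG printed above for Nop2 was in 22.5% of the 80 promoters searched in this list and in 10.3% of all. This share is a trait of a list chosen by function, whatever FGF6 does. Among the 51 promoters searched of the 100 largest increases the E-box was in 7.84%, and among those of the 100 largest decreases in 13.7%.

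The rest of the translation machinery shifted less. Of the cytosolic ribosomal proteins, 77 of 81 genes tested rose and 1 fell, with a median of 0.39, and Rps27l, the gene that fell (-0.09), was not called without FGF6 replicate 1 or 3 or without vehicle replicate 1 or 2. Of the tRNA synthetases, 19 of 21 genes tested rose and 1 fell (median 0.37), and of the initiation factors, 41 of 53 genes tested rose and 5 fell (median 0.34), with the cap-binding protein Eif4e at 0.94 and the stress kinase gene Eif2ak3 at -0.79. The mitochondrial ribosomal proteins had 47 of 76 genes higher and 8 lower. Some ribosomal protein genes with many processed copies in the genome had few counts, such as Rps6 (from 4.63 ± 0.466 to 12.9 ± 1.41 CPM). How reads mapping to several places were counted was not given in the sources used here, so such levels, and those of Gapdh (45.1 CPM) and Actg1 (4.87 CPM), are uncertain.

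Biosynthetic enzymes were also largely higher. Ornithine decarboxylase (Odc1), the first enzyme of polyamine synthesis, had 40.2, 37.4, and 37.2 CPM in vehicle and 154, 149.5, and 138 CPM with FGF6 (log2 fold change 1.95, standard error 0.06, adjusted p = 3.17e-20), and of the 17 polyamine genes 11 rose and 5 fell. Of the nucleotide and folate genes, 29 of 37 genes tested rose and 7 fell (median 0.48). Shmt1, which makes one-carbon units (1.36), and Ppat (1.18) and Pfas (1.12) of the purine pathway had the largest increases, and the ribonucleotide reductase subunit Rrm1 (-0.41) and thymidylate synthase (Tyms, -0.23) fell. Heat shock proteins and chaperones had 21 of 28 genes higher and 5 lower, led by Hspd1 (0.92) and the chaperonin subunits Cct6a (0.79) and Cct2 (0.77), while Hspa1a fell (-1.40), and only 3 genes fell without FGF6 replicate 3. Proteasome subunits rose in 30 of 34 genes, with a median of 0.19, and 1 fell, Psmb1 (-0.09), which was not called without FGF6 replicate 1 or 3 or without vehicle replicate 1 or 3.

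Glucose genes were mixed. Hexokinase 2 (Hk2) had 35.5, 33.0, and 31.8 CPM in vehicle and 111, 109, and 106 CPM with FGF6 (log2 fold change 1.70, standard error 0.04, adjusted p = 3.52e-22), and the glucose transporter Slc2a1 rose from 129.7 ± 6.96 to 290.3 ± 11 CPM (1.16). In contrast, the pyruvate dehydrogenase kinases Pdk1 (-0.87), Pdk2 (-1.41), and Pdk4 (-1.32) fell, and of the 39 genes of glucose uptake, glycolysis, and the pentose phosphate pathway 15 rose and 16 fell. Of the nuclear respiratory chain genes, 11 of 77 genes tested rose and 37 fell, with none changed by 2-fold, and of the 7 mitochondrially encoded genes tested 5 fell and none rose, with mt-Nd6 the lowest (-0.25). Without FGF6 replicate 3, 2 of these mitochondrial genes fell and 1 rose, and without vehicle replicate 2, 3 fell. With DESeq2, and in a fit to the 8 h libraries alone, 3 fell and 1 rose. The amino acid transporters Slc7a1 (1.07) and Slc7a5 (1.00) rose and the glutamate transporter Slc1a3 fell (-3.48), among 9 that rose and 12 that fell of 25 tested.

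**Figure D2:**
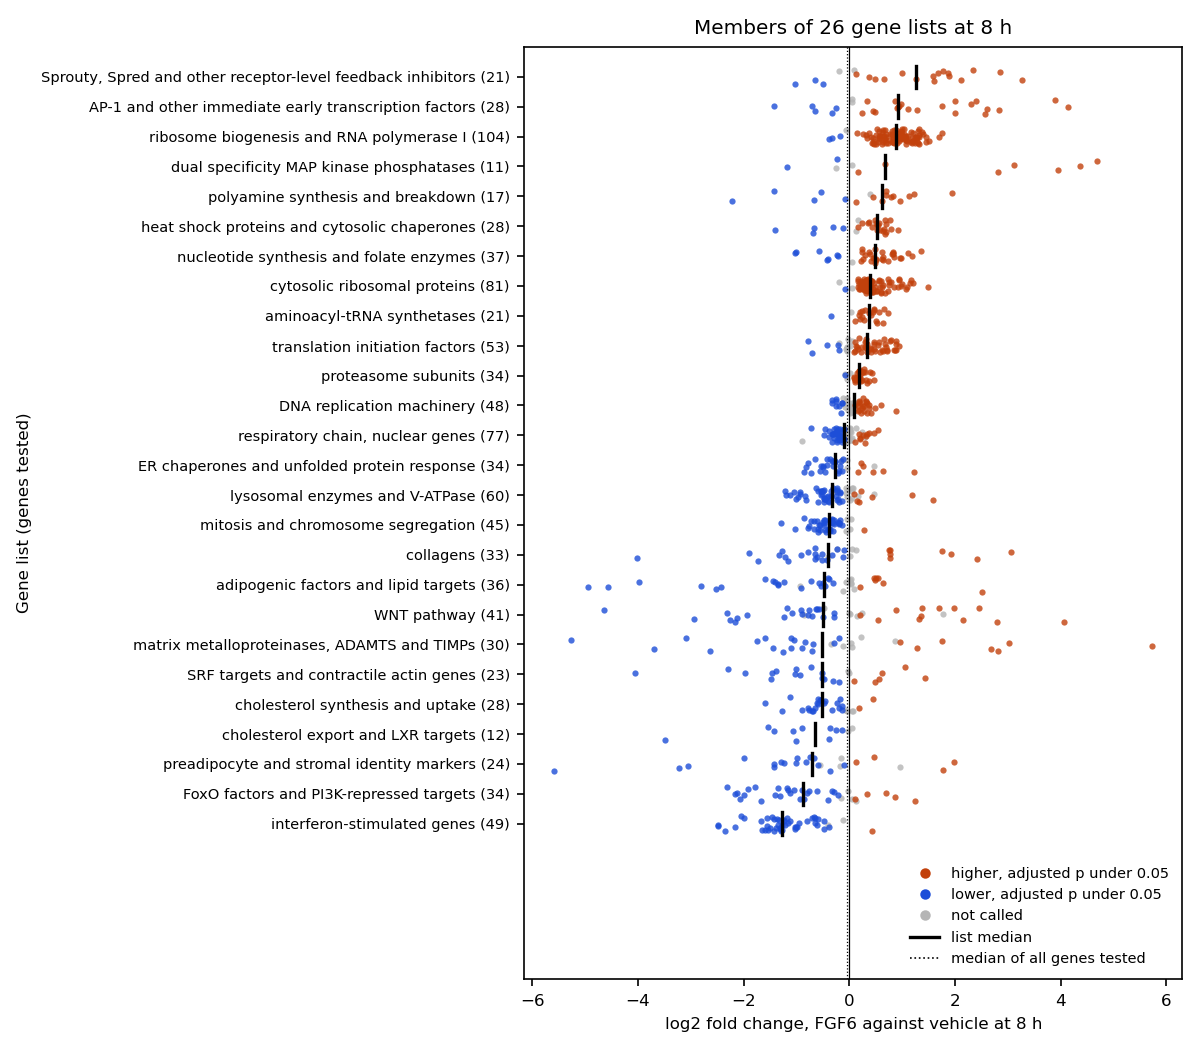
Log2 fold change at 8 h of each tested member of 26 gene lists, 1 point a gene, colored by its call, with the list median as a black bar and a dotted line at the median of all genes (-0.05). Ribosome biogenesis (median 0.89) and the interferon-stimulated genes (median -1.27) lie almost wholly on opposite sides of 0, while the WNT and matrix protease lists spread to both sides.

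Interferon and cholesterol genes were mostly lower. Interferon-stimulated genes encode antiviral proteins and the machinery of antigen processing. Of the 49 tested, 46 fell and 1 rose (2.04% higher and 93.9% lower), 34 of them by at least 2-fold, with a median of -1.27. Their summed level was 6741 to 9366 CPM in vehicle and 3374 to 4327 CPM in FGF6 libraries, and vehicle replicate 1 was the lowest of its group. Ifit1, whose promoter is printed above, had 342, 546, and 571 CPM in vehicle and 117, 91.7, and 117 CPM with FGF6 (log2 fold change -2.16, standard error 0.19, adjusted p = 2.04e-10). The GTPase gene Gbp7 had the steepest decrease (from 132 ± 34.7 to 23.5 ± 3.16 CPM, -2.49). In both of these genes vehicle replicate 1 was under the other vehicle libraries and still above all FGF6 libraries. Ifi203 was the gene that rose (0.43), and its call was lost without FGF6 replicate 1 or without vehicle replicate 1. Oas3 (-0.41) and Ifi27 (-0.12) did not pass the test, although Oas3 was called lower without FGF6 replicate 1 (-0.84) or with no low-count filter, and Ifi27 with library sizes alone, upper-quartile factors, or no low-count filter. Parts of the exons of Gbp7 overlap another annotated gene on the same strand. The ISRE was in 53.3% of the 30 promoters searched in this list, which was chosen for known interferon targets, and in 3.11% of all. Complement genes, which encode another arm of innate immunity, had 3 of 15 genes higher, Masp1 (1.33) among them, and 9 lower, including C3 (from 423 ± 17.1 to 207 ± 7.99 CPM, -1.03) and C1s1 (-1.26).

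Of the genes for synthesis and uptake, 2 of 28 genes tested rose and 22 fell, with a median of -0.51, and the summed level was 3480 to 3789 CPM in vehicle against 2644 to 2866 CPM. Without FGF6 replicate 2, or without vehicle replicate 1 or 2, 1 gene rose. Hmgcs1, which makes HMG-CoA, had 303, 285, and 296 CPM in vehicle and 105, 92.9, and 94.3 CPM with FGF6 (log2 fold change -1.60, standard error 0.05, adjusted p = 5.64e-19). Its exons overlap a gene on the opposite strand over 557 of 4594 bases. The SREBP regulators Insig1 (-0.90) and Insig2 (-1.28) fell and Scap rose (0.44). SRE-1 was in 1 of the 16 promoters searched in this list (6.25%), that of Hmgcs1, and in 1.01% of all. Of the cholesterol export genes, 10 of 12 fell and none rose, with the transporter Abca1 going from 16.1 ± 0.575 to 5.59 ± 1.09 CPM (-1.53), although 1 gene was called higher in a fit to the 8 h libraries alone.

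FoxO factors and genes that PI3K signals are known to repress, taken as 1 list, were mostly lower. Of this list, 5 of 34 genes tested rose and 25 fell (median -0.87). Txnip, an inhibitor of glucose uptake, had 114, 129, and 135 CPM in vehicle and 29.3, 29.1, and 28.2 CPM with FGF6 (log2 fold change -2.12, standard error 0.07, adjusted p = 2.1e-18), and the PI3K inhibitor Pik3ip1 had 9.15, 8.96, and 10.2 CPM against 2.18, 1.85, and 2.30 CPM (log2 fold change -2.16, standard error 0.12, adjusted p = 4.33e-14). Of the Txnip exons, 606 of 3123 bases overlap a gene on the opposite strand. The insulin receptor substrate Irs2 fell from 38.5 ± 4.09 to 25.2 ± 1.87 CPM (-0.61), whereas Irs1 rose (0.86). Bcl6, itself a FoxO target, rose (1.24), and Bcl2l11, which encodes the death protein BIM, did not pass the test (0.12), although it was called higher without FGF6 replicate 3 (0.20), without vehicle replicate 3 (0.16), with DESeq2 (0.16), and in a fit to the 8 h libraries alone (0.15). Of the BCL2 family, 7 genes rose and 7 fell of 15. The anti-apoptotic Bcl2l1 (1.04) and Mcl1 (0.81) rose, and Bmf (-6.31), Bnip3 (-1.34), and Bbc3 (-0.93) fell. Bid, which like Bmf promotes cell death, was also called higher, though not with library sizes alone (0.07). Of the lysosomal genes, 7 of 60 genes tested rose and 41 fell, with cathepsin L (Ctsl, 1.59) as the highest of those that rose, and of the autophagy genes, 8 of 37 genes tested rose and 25 fell. ER chaperones and unfolded protein response genes fell in 24 of 34, Xbp1 (-0.86) and Herpud1 (-0.81) most, while 6 rose, Ern1 (1.23) most. Among targets of the stress factor ATF4, 11 rose, the cystine transporter Slc7a11 most (1.38), and 15 fell of 31, and its motif was in 40.9% of the 22 promoters searched and in 2.22% of all. Of the NRF2 targets 16 rose, among them Srxn1 (1.38), and 17 fell of 37, and the antioxidant element TGACNNNGC, which a match to the AP-1 motif can overlap, was in 31.8% of 22 promoters and 14.8% of all.

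**Figure D3:**
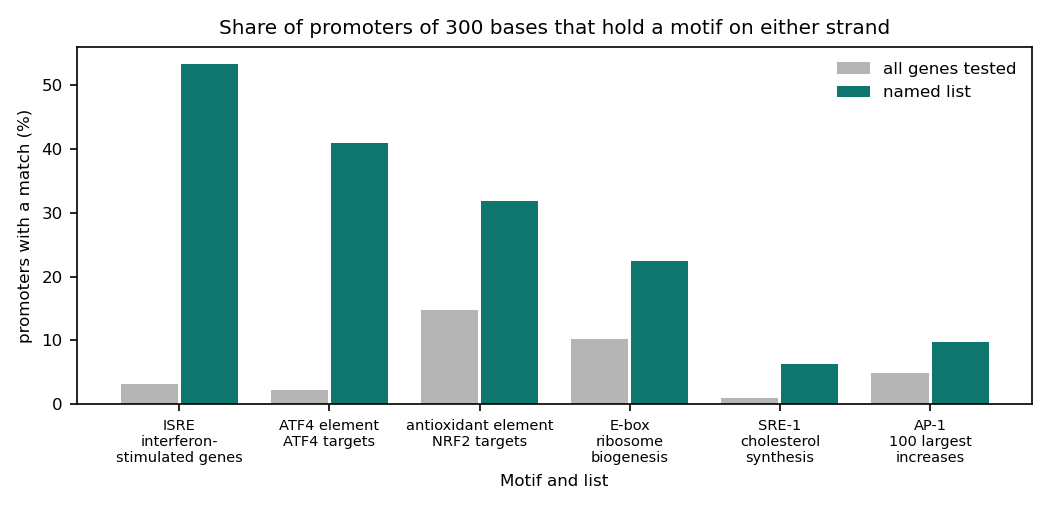
Percent of promoters with at least 1 match to a motif, for all tested genes with 1 annotated promoter (grey, 8520) and for a named list (green). The ISRE stood in 53.3% of the promoters of interferon-stimulated genes against 3.11% of all promoters, and the E-box in 22.5% of those for ribosome biogenesis against 10.3%. The interferon, ATF4, and NRF2 lists are known targets, so a high share there follows from their choice and is not an effect of FGF6. The ribosome biogenesis and cholesterol lists were chosen by function, and their shares are not an effect of FGF6 either. The list bar for AP-1 stands for 5 of 51 promoters.

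Cell cycle genes moved in both directions. Cyclin D1 (Ccnd1), which carries growth factor signals into G1, had 46.5, 46.7, and 38.8 CPM in vehicle and 393, 402, and 399.9 CPM with FGF6 (log2 fold change 3.18, standard error 0.07, adjusted p = 1.37e-22), with part of its exons shared with a gene on the other strand. The CDK inhibitor Cdkn1b (p27) fell from 140.4, 146, and 154 CPM to 64.9, 63.6, and 65.9 CPM (log2 fold change -1.18, standard error 0.04, adjusted p = 9.35e-19), and Cdkn2b (-1.74) and Cdkn2d (-1.53) fell too. Over all 30 G1 genes, 17 rose and 10 fell. Of the DNA replication genes, 23 of 48 genes tested rose and 9 fell, with no change of 2-fold and a median of 0.09, and 15 fell with library sizes alone. Of the mitosis genes, 1 of 45 genes tested rose and 40 fell (median -0.39). Nusap1, a spindle protein, fell the most (-1.29), then cyclin B2 (Ccnb2, -1.03), and Bub3 was the gene that rose (0.28). The summed level of the mitosis genes was 7037 to 7159 CPM in vehicle and 5250 to 5436 CPM in FGF6 libraries.

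Matrix and contractile genes were lower on balance. Of the collagens, 8 of 33 genes tested rose and 20 fell (median -0.41). The fibrillar collagen Col1a1 fell from 3514 ± 170.1 to 1585 ± 85.5 CPM (-1.15), Col8a2 fell by 4.02 on the log2 scale, and Col10a1 (3.06) and Col17a1 (2.41) rose. The preadipocyte and fibroblast markers, whose sum was given above, include 3 of these collagens, Col1a1 among them. The fall of that sum is therefore in large part the fall of collagens and not a separate result. Of the matrix proteases and their inhibitors, 7 of 30 genes tested rose and 17 fell. Mmp13 had 1.23, 1.02, and 0.993 CPM in vehicle and 8.98, 9.21, and 8.13 CPM with FGF6 (log2 fold change 3.02, standard error 0.13, adjusted p = 1.55e-16), Mmp3 (2.69) and Timp1 (1.76) rose, and Adamts5 (-3.08), Adamts1 (-2.64), and Mmp2 (-1.59) fell. Timp3 was lower by a small amount (from 456 ± 1.70 to 399 ± 16.5 CPM, -0.20). The urokinase receptor Plaur had 23.4, 24.4, and 22.9 CPM against 155, 154, and 153 CPM (log2 fold change 2.71, standard error 0.04, adjusted p = 4.31e-26), and its ligand Plau (0.58) rose less, in a list of plasminogen activators and serpins with 7 of 13 genes higher and 5 lower. In the hyaluronan list 6 of 15 genes rose and 6 fell. Of the hyaluronan synthases, Has1 rose the most (from 1.56 ± 0.379 to 29.6 ± 2.05 CPM, 4.24), followed by Has3 (0.49) and Has2 (from 22.7 ± 1.49 to 30.2 ± 0.943 CPM, 0.41), and Cd44, the hyaluronan receptor, rose too (1.71), while Cemip (-2.53) and versican (Vcan, -1.93) fell. The call for Has3 was lost without vehicle replicate 1 (0.36). Of the integrins and laminins, 13 of 31 genes rose and 14 fell, where integrins Itga6 (3.73), Itgb3 (3.27), and Itga5 (1.42) rose and Itga1 fell (-2.58). Of the cadherins, protocadherins, and claudins, 8 of 20 genes rose and 8 fell, and Cdh11, the mesenchymal cadherin, was among the latter (-1.03). Of the SRF targets and contractile genes, 6 of 23 genes tested rose and 15 fell, with Lmod1 (-4.06) and Myl9 (-2.30) lower and Ccn2 (1.43) and Zyx (1.05) higher.

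Developmental pathways showed no single direction. In the TGF-beta and BMP list, 20 genes rose, the activin subunit Inhba (from 9.15 ± 0.535 to 63.9 ± 1.11 CPM, 2.80) and Tgfb1 (1.68) among them, and 14 fell of 39, Bmp4 (-4.62), the BMP target Id3 (-2.31), and Smad9 (-1.85) among them. Of the WNT genes, 12 of 41 genes tested rose and 21 fell. The antagonist Dkk2 (4.06) and the effector Lef1 (2.79) rose, and Wnt10b (-2.26), which is known to restrain adipogenesis, and Rspo2 (-2.32) fell. Hedgehog genes fell in 8 of 13 and 1 rose, with the receptor Ptch1 at -1.10 and Gas1 at -1.66, and Gli1, a target of the pathway, had 1.20, 0.699, and 0.787 CPM in vehicle and 0.944, 1.01, and 0.781 CPM with FGF6, with overlapping groups (adjusted p = 0.923). In the Notch list 5 of 14 genes rose and 5 fell. Notch3 (-2.43) and Lfng (-2.21) fell and Rbpj (1.70), the DNA-binding effector of Notch, rose. In the insulin-like growth factor axis, 13 of 20 genes fell, Igf1 (-2.25) and Igfbp4 (-2.23) among them, and 6 rose, Stc1 (2.06) among them. Among guidance genes, Sema7a, Efnb2 (2.44), and Epha2 (2.26) rose and Sema3f (-1.91) and Ephb3 (-1.50) fell, within 16 that rose and 27 that fell of 51.

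Adipocyte and preadipocyte genes were mostly lower. Of the adipogenic factors and lipid genes, 7 of 36 genes tested rose and 21 fell (median -0.48). Pparg, the master regulator of adipogenesis, fell from 50.3 ± 3.24 to 19.7 ± 0.148 CPM (log2 fold change -1.35, standard error 0.05, adjusted p = 1.08e-17), and Cebpa less, from 37.2, 36.0, and 36.8 CPM to 32.0, 28.3, and 28.6 CPM (log2 fold change -0.31, standard error 0.06, adjusted p = 9.88e-05). Lipoprotein lipase (Lpl) had 1341, 1373, and 1464 CPM in vehicle and 275, 246, and 261 CPM with FGF6 (log2 fold change -2.42, standard error 0.05, adjusted p = 7.11e-24), and Plin4 fell by 2.80 on the log2 scale. Klf5, which acts early in adipogenesis, rose (2.52), and Angptl4, an inhibitor of Lpl, rose from 202 ± 4.41 to 261 ± 6.14 CPM (0.37). Of the brown fat regulators, 6 of 19 tested genes rose and 6 fell. Foxc2 rose from 16.0 to 135 CPM (3.07) and Prdm16 rose (0.54), while the coactivator Ppargc1a (-1.11) fell. Of the preadipocyte and stromal identity genes, 4 of 24 genes tested rose and 16 fell (median -0.70). Their summed level overlapped between the groups, at 4573 to 4662 CPM in vehicle and 4466 to 4609 CPM in FGF6 libraries, where Mgp went from 441 ± 16.4 to 1499 ± 90.9 CPM. Pdgfra had 285, 301, and 303 CPM in vehicle and 180.1, 171, and 178 CPM with FGF6 (log2 fold change -0.75, standard error 0.03, adjusted p = 3.44e-16), and F3 (-3.05) and Cd24a (-3.22) fell more, while matrix Gla protein (Mgp, 1.76) rose. Of the nuclear receptors and glucocorticoid targets, 12 of 30 genes rose and 10 fell, with the estrogen receptor gene Esr1 (-3.12) and Vdr (-1.50) among the decreases and the kinase gene Sgk1 (3.01), a glucocorticoid target, among the increases. Clock genes fell in 11 of 18, with Nfil3 (-1.78) and Tef (-1.33) lower and Nr1d1 (1.18) higher. Of the Kruppel-like factors, 7 of 14 rose, Klf5 and Klf16 (1.25) most, and 5 fell, Klf15 (-1.40) most. Of the histone demethylase, TET, deacetylase, and EZH genes, 9 of 42 genes tested rose and 21 fell, with the H3K27 demethylase gene Kdm6b higher (0.65) and Hdac11 (-1.66), Tet1 (-1.42), and Ezh1 (-1.02) lower.

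How the effect at 8 h differed from that at 4 h and 24 h was tested as an interaction over all 18 libraries. The 8 h effect was above the 4 h effect for 2335 genes (15.5%) and below it for 2280 (15.1%), and the 24 h effect was above the 8 h effect for 3412 (22.6%) and below it for 3385 (22.5%). Both comparisons use the 8 h libraries. The interferon-stimulated genes had a median log2 fold change of -0.09 at 4 h, -1.27 at 8 h, and -4.24 at 24 h. Of the 49, 45 had a lower effect at 8 h than at 4 h and 47 a lower one at 24 h than at 8 h. Between 4 h and 8 h their median level moved by 0.04 in vehicle and by -1.05 in FGF6-treated cells on the log2 scale. For Ifit1 the effect was -0.33 at 4 h, -2.16 at 8 h, and -3.80 at 24 h, and its difference between 8 h and 4 h was -1.84 (adjusted p = 6.08e-06).

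Ribosome biogenesis ran differently. Of its 104 genes, 74 had a higher effect at 8 h than at 4 h, and 12 had a higher and 43 a lower one at 24 h than at 8 h, with medians of 0.61, 0.89, and 0.76 at the 3 times. From 4 h to 8 h the median level of the list changed by -0.35 in vehicle and by -0.02 in FGF6-treated cells. The cholesterol synthesis list had 18 of 28 genes with a lower effect at 8 h than at 4 h, and its medians were -0.08, -0.51, and -0.46. Hmgcs1 went from -0.40 to -1.60, a difference of -1.20 (adjusted p = 8.6e-12). Of the 60 lysosomal genes, 34 had a lower effect at 8 h than at 4 h. The mitosis list had medians of -0.46 at 4 h, -0.39 at 8 h, and 0.33 at 24 h, and all 45 tested genes had a higher effect at 24 h than at 8 h.

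**Figure D4:**
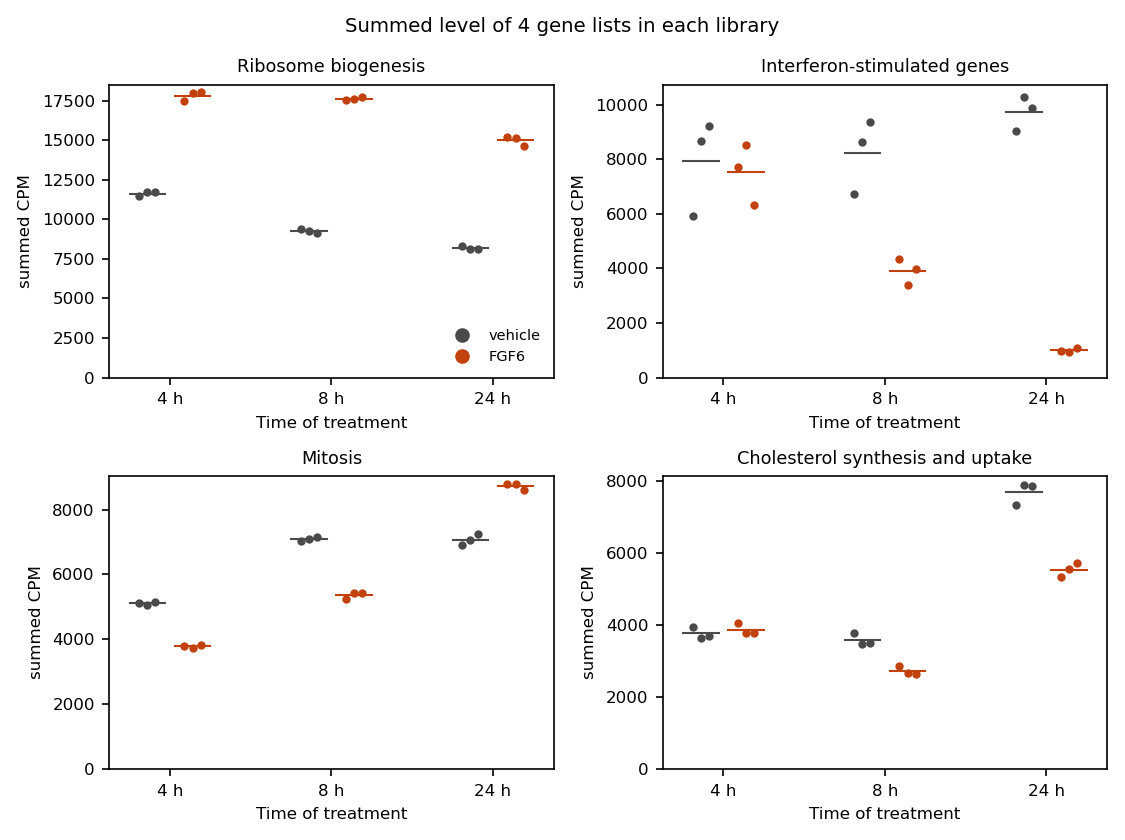
Summed CPM of 4 gene lists in each of the 18 libraries, by time and treatment, with a horizontal line at each group mean and axes starting at 0. Interferon-stimulated genes overlap between groups at 4 h and lie at 3374 to 4327 CPM with FGF6 against 6741 to 9366 CPM with vehicle at 8 h, and the mitosis genes are lower with FGF6 at 8 h and higher at 24 h.

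Some single genes had effects of opposite sign at different times, each past the test's threshold. Timp3, an inhibitor of matrix proteases, had effects of 0.51, -0.20, and -2.68 at 4, 8, and 24 h, with a difference between 8 h and 4 h of -0.70 (adjusted p = 5.75e-12), and part of its exons overlaps Syn3 on the opposite strand. Egfr had 0.44, -0.73, and -2.62, and the chemokine Cxcl10 had 0.62, -1.53, and -3.08. Ccl2 (1.12, 0.82, and -1.12) and Angptl4 (0.70, 0.37, and -1.04) were higher at 4 and 8 h and lower at 24 h, and their differences between 24 h and 8 h were -1.93 (adjusted p = 2.91e-18) and -1.41 (adjusted p = 6.16e-16). The effect on Etv4 was 2.35 at 4 h and 4.42 at 8 h, a difference of 2.07 (adjusted p = 1.71e-10), and Spry2 had effects of 2.96 and 2.86, with a difference that did not pass the test, -0.10 (adjusted p = 0.349). Has2 had a smaller effect at 8 h (0.41) than at 4 h (1.17), with a difference of -0.76 (adjusted p = 4.34e-08). For Ccnd1 the effects at 4 h and 8 h were 2.15 and 3.18, a difference of 1.03 (adjusted p = 6.33e-09).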

How the data were processed

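RNA was sequenced from brown preadipocytes given vehicle or FGF6 for 4, 8, or 24 h, with 3 libraries in each of 6 groups. The authors deposited raw read counts per gene in 1 table of 48023 genes. Per the study's methods and the labels, reads were aligned with STAR to GRCm38 and counted with featureCounts from Subread over a GENCODE annotation. Tool versions, the annotation release, the strand setting, and the handling of reads that map to several places were not given in the sources used here, and this leaves genes with near-identical copies or overlapping neighbors uncertain. Symbols were matched to 98.3% of the gene IDs, and promoter windows and motif matches came from RefSeq sequences of GRCm38.p6.

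Counts were analyzed in R 4.3.3 with edgeR 4.0.16. Genes were kept by filterByExpr, which left 15071, library sizes were scaled by TMM (factors 0.994 to 1 for FGF6 and 1.04 to 1.05 for vehicle at 8 h), and the quasi-likelihood model took in the libraries of all 6 groups, which then share 1 estimate of the spread. Genes were called at a Benjamini-Hochberg adjusted p under 0.05 over all genes tested. The standard errors given are the size of the log2 fold change over the square root of the test's F statistic. They are not a direct estimate, and they understate the counting error of large changes from few counts, as in Areg, Bmf, and Scara5. The study's methods used a model of the same kind in limma with voom and an adjusted p under 0.25, and both were run as alternatives with limma 3.58.1, beside DESeq2 1.42.0 and the other settings given in the closing section. With 3 libraries against 3 an exact permutation test of a single gene cannot go below 0.1. Libraries of 1 group at 8 h differed by more than counting noise (chi-square per degree of freedom 2.37 to 5.96). In counts simulated for the 8 h comparison over 14989 genes, the test found 79 of 99 genes changed 1.5-fold and 85 of 100 changed 2-fold, with 10 false calls. Few genes were changed in that simulation, equally up and down, whereas 70.8% of genes were called in the data. Its rates therefore do not carry over to this comparison.

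The comparison, the 58 gene lists, and the genes named in them were chosen with earlier results of these data known, so no list was given a test or a p-value of its own. Named genes were the 10 largest increases and decreases among called genes with a mean of at least 1 CPM and no overlap between groups, 30 genes set by name, up to 3 members of each list with the largest called increase and decrease at that mean, the members of lists with 15 or fewer tested genes, and the 4 largest differences each way in each interaction. Named after their values were seen were Actg1, Adamts1, Angpt1, Angpt2, Col1a1, Egr1, Ephb3, Gapdh, Ifi27, Ifit1, Il11, Il1rl1, Insig1, Itga5, Lpl, Mmp2, Oas3, Pdk1, Pparg, Rrm1, Slc7a5, Spry1, Srf, and Tyms. Some genes that this rule covers are not reported here.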

Additional observations from a re-analysis of the deposited data

Results flagged for a closer look

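The genes below are those with the largest tested differences between the FGF6 effects at 2 times, in edgeR's quasi-likelihood interaction test over all 18 libraries. In groups of 3 libraries single libraries were not tested for standing apart. The 8 h effect was below the 4 h effect for Slc17a1 by -3.86 on the log2 scale (adjusted p = 3.06e-05), Vsnl1 by -3.58 (1.39e-09), Scara5 by -3.21 (9.82e-08), and the matrix protein gene Aspn by -2.80 (4.44e-09). It was above the 4 h effect for Tmem200a by 2.44 (5.49e-09), Havcr2 by 2.60 (0.000825), Nptx1 by 2.84 (8.6e-12), and Adcy8 by 2.94 (0.00167). Nptx1, a secreted pentraxin of neurons, had 1.04, 1.34, and 1.64 CPM in vehicle and 36.5, 42.6, and 45.7 CPM with FGF6 at 8 h, and its vehicle level moved by -3.19 between 4 h and 8 h. Slc17a1, a phosphate transporter, was at or under the floor of 3 counts in the FGF6 libraries at 8 h, at least 15.7-fold lower than vehicle.

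The 24 h effect was below the 8 h effect for Gm12248 by -7.83 (adjusted p = 2.42e-07), the apolipoprotein gene Apod by -6.56 (4.36e-11), Egfl6 by -6.51 (6.28e-10), and the carboxylesterase gene Ces1g by -6.45 (2.13e-09). It was above the 8 h effect for Cd53 by 3.26 (0.031), Nckap1l by 3.30 (0.00103), Hao1 by 3.52 (7.13e-05), and Dnajc22 by 3.62 (0.000281). At 8 h itself Apod, Gm12248, and Dnajc22 did not pass the test, although Apod was called lower with limma-voom (-0.49), with library sizes alone (-0.46), with no low-count filter (-0.39), and without FGF6 replicate 1 (-0.86). Without vehicle 8 h replicate 3 the difference for Cd53 was 2.56 with an adjusted p of 0.194, and the other 15 genes kept their calls without any 1 library at 8 h.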

How the results depend on the processing

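Across limma with voom, DESeq2, upper-quartile or no scaling factors, an open or a stricter filter on low counts, and fits to the compared times alone, the counts of calls stayed within 1.5 times those reported, except that requiring at least 10 counts in every library gave 726 genes up and 895 down at least 2-fold (against 1114 and 1645), a filter that leaves fewer genes to test. At an adjusted p under 0.25, 3801 genes had an 8 h effect above and 3596 below that at 4 h (against 2335 and 2280). Leaving out 1 library at 8 h at a time gave 4685 to 5107 genes higher and 5183 to 5599 lower, 1101 to 1189 and 1569 to 1699 at 2-fold or more, 2024 to 2375 and 1911 to 2186 above and below the 4 h effect, and 3128 to 3248 and 3159 to 3314 for 24 h against 8 h. These totals hide some turnover, since 550 to 782 of the called genes lost their call without 1 library. Of the 2759 genes called at 2-fold or more, 268 lost their call in at least 1 such case. The share of calls that were higher was 45.8%, and 40.2% with library sizes alone and 49.6% without FGF6 replicate 3. Over all tested genes, deviations of the same replicate numbers at 8 h were nearly uncorrelated (-0.0275, -0.00676, and 0.0431). In the summed cholesterol synthesis list, replicate 1 was the highest with FGF6 (2866, 2668, and 2644 CPM) and in vehicle (3789, 3480, and 3498 CPM). In the interferon list it was the highest with FGF6 (4327 CPM) and the lowest in vehicle (6741 CPM). Whether a replicate number marks a shared batch was not tested. With a replicate block, 4895 genes were higher and 5791 lower, 1112 and 1638 of them at 2-fold or more. The block gave 2363 and 2294 for 8 h against 4 h, and 3447 and 3408 for 24 h against 8 h. Of 456 genes set by the naming rule, 24 lost their call in some setting, 23 gained one, 19 of them with the adjusted p still under 0.05, none reversed, and 12 of 58 list medians changed sign in some setting, none of which is printed. Over all lists and settings, 402 medians moved by more than the spread between libraries and 410 did not. In 57 of the 58 lists the median moved so in at least 1 setting. Across the processing settings the proteasome median lay between 0.12 and 0.22, and that of DNA replication between 0.03 and 0.13. Among lists, 15 DNA replication genes, 14 mitochondrial ribosomal protein genes, and 8 initiation factors fell with library sizes alone (against 9, 8, and 5), and 4 lysosomal genes rose (against 7). With at least 10 counts in every library 3 matrix protease and 1 complement gene rose (against 7 and 3), and 5 cadherin genes and 1 FGF ligand fell (against 8 and 3). With DESeq2, and in a fit to the 8 h libraries alone, 3 mitochondrially encoded genes fell and 1 rose (against 5 and 0). The single genes that fell among ribosomal proteins (Rps27l) and proteasome subunits (Psmb1) lost their calls in several settings. Fewer than 3 counts a library sets the limit for genes near the floor.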
